A study of Mus musculus with 4 samples.

Results

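The genes that act directly on the receptor complex of chaperone-mediated autophagy (CMA) were examined probe by probe: the receptor gene *Lamp2*, the chaperone gene *Hspa8*, and *Ctsa*, *Gfap*, *Eef1a1*, *Phlpp1*, *Rictor*, *Akt1*, *Akt2* and *Rac1*. Every gene probe whose transcript accession maps to one of these 10 mouse symbols was taken, without regard to its values. This gave 20 probes of the 55681 on the array, and 10 genes of the 20895 symbols that could be named. All 20 had a value on each of the 4 arrays, 17 were well above background on all of them, and 1 was so on none. Each probe was printed as 1 spot per array, except the *Akt1* probe, which had 2, so almost every value below rests on 1 spot.

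NIH-3T3 cells, an established line of mouse embryonic fibroblasts, were grown to confluence in medium with serum and then collected after 24 h. One culture was labelled as untreated, and the others had received 20 µM of AR7, CA39 or CA77, which are small molecules made to activate CMA. CA39 and CA77 are derivatives of AR7. Their solvent was DMSO, and the control is labelled as having no treatment, so an effect of vehicle and an effect of compound cannot be told apart in what all treated cultures share.

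CMA delivers single proteins to lysosomes. The chaperone HSC70, encoded by *Hspa8*, recognises a short motif in a protein and brings it to the lysosomal membrane, where it binds LAMP2A, the only one of the splice forms of *Lamp2* that serves as the receptor. LAMP2A then assembles into a multimer through which the protein passes into the lumen. A form of GFAP at the lysosome stabilises this multimer, EF1α (*Eef1a1*) takes part in its disassembly, and cathepsin A (*Ctsa*) cleaves LAMP2A. AKT, activated by the mTORC2 complex that holds RICTOR, phosphorylates GFAP and lowers CMA, whereas the phosphatase PHLPP1, held at the lysosome with the help of the GTPase RAC1, removes the phosphate that activates AKT. Most of these steps act on proteins, and the arrays measured mRNA only.

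At the level of mRNA most of these genes differed little from untreated cells. *Lamp2* was at most 1.17-fold higher in the main processing and *Hspa8* differed by at most 0.15 (log2) in size, within the measurement tolerance, though up to 0.26 with another scaling. The bright probe of *Ctsa* was 1.23-fold to 1.44-fold higher with all compounds, each against the same untreated spot, while its dim probe was not detected with AR7. One *Gfap* probe was 0.76-fold and 0.74-fold of untreated with CA39 and CA77 at a signal near background, and another was detected with AR7 alone, at least 2.60 or 1.88 (log2) higher, depending on the floor, on 1 spot. *Phlpp1* was at 0.25 and 0.21 (log2) above untreated with CA39 and CA77.

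Each group was 1 array, so no difference below has a replicate check and no p-value is given. The error that could be measured was that between spots of one array. Of the 399 probes printed 10 times, 265 to 302 were detected on an array, and these had a median SD of 0.09 to 0.12 (log2) between their spots, so dim probes are not covered in full. From this, the SD of a difference between 2 arrays was taken as 0.16, called the measurement tolerance here. A difference within 0.31 has a 95% interval that holds 0, and this interval covers spot error only. A difference of 1.5-fold, or 0.585 on the log2 scale, was used as the call. Levels are normalised log2 intensities. They order the arrays for one probe and do not compare probes with each other. The 4 arrays lay on 1 slide, untreated in row 1 and the treated ones in row 2, and CA77 was read in scan 2 while the others were read in scan 1, so these effects and treatment cannot be told apart. The scanner software's test placed 69.7% of all 55378 probes well above background without treatment, and 52.9%, 52.2% and 61.6% with AR7, CA39 and CA77. Fibroblast markers were present, with 8 of 9 detected on all arrays. Of 7 epithelial, blood and endothelial markers, 4 were detected on all arrays (*Krt8*, *Krt18*, *Pecam1* and *Cdh5*) and *Cdh1* on none. *Krt8* and *Krt18* were 2.38 and 0.98 higher with CA39, and *Epcam* was detected with CA39 alone. *Cdh5* differed from untreated by 0.62, 0.01 and 0.52 with AR7, CA39 and CA77. The part of these in the values below was not tested.

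**Figure D1:**
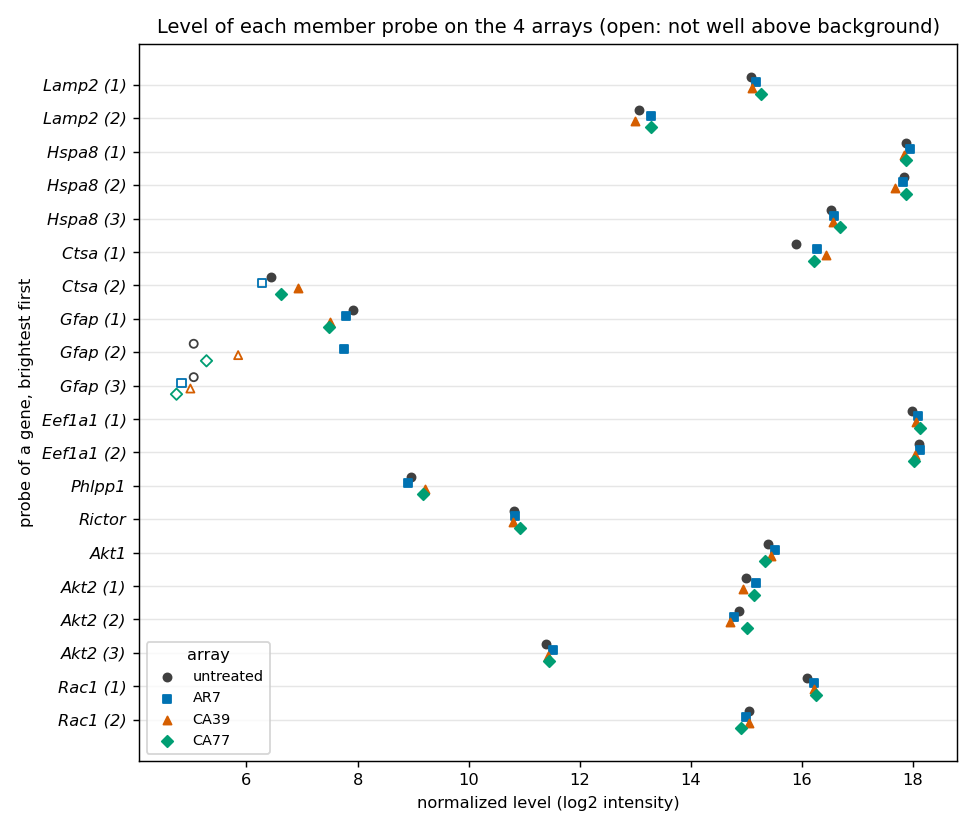
Normalised level (log2 intensity) of the 20 probes of the 10 genes on each of the 4 arrays, 1 symbol per array, with open symbols where the probe was not well above background and probes of a gene numbered from the brightest. In most rows the 4 symbols lie close together, and open symbols appear only for the dim probes of *Ctsa* and *Gfap*.

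Promoter sequences are given for 3 genes on which the values below turn: the receptor gene, *Ctsa*, whose bright probe was higher with every compound, and *Gfap*, whose detected probe was lower with 2 of them. They are the 250 bases before annotated starts, from RefSeq on assembly GRCm38.p6. Capitals mark the motifs CACGTG, the core site of TFEB-like factors that act on lysosomal genes, and AGGTCA or its reverse complement TGACCT, the half-site of retinoid receptors. The compounds were designed around retinoic acid receptor alpha. *Ctsa* has a pair of annotated starts on the plus strand of chromosome 2, and both are shown because the table does not pair starts with the transcripts that the probes read.
Ctsa, chr2:164832622-164832871, plus strand: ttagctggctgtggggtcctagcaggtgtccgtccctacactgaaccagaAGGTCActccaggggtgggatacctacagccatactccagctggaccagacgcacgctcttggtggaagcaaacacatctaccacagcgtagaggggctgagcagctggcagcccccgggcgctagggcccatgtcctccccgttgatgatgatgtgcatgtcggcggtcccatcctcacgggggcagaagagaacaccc
Ctsa, chr2:164833523-164833772, plus strand: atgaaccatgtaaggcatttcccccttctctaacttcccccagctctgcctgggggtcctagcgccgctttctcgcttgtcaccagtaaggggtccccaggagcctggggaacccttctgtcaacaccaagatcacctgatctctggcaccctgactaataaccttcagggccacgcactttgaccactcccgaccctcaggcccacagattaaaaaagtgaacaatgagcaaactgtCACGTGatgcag
Lamp2, chrX:38456461-38456710, minus strand: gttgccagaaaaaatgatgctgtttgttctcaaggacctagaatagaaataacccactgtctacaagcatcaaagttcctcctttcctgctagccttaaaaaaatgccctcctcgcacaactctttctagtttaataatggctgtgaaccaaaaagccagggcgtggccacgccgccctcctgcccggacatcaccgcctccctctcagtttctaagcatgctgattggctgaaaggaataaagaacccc
Gfap, chr11:102897201-102897450, minus strand: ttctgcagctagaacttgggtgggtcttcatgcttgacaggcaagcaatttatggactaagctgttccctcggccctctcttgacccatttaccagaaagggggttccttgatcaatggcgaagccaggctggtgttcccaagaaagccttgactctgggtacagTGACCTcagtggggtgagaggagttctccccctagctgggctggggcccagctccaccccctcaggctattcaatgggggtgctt

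CACGTG stood 12 to 7 bases before the second *Ctsa* start. It was found in 1 of the 13 promoters of the 8 genes that the table holds, against 6.02% of all 32851 promoters. AGGTCA, read on either strand, stood 200 to 195 bases before the first *Ctsa* start, 85 to 80 before the *Gfap* start, and 238 to 233 before an *Akt1* start. It was held by 3 of the 13 promoters, against 14% of all. The *Lamp2* promoter held neither. A further motif, TGACNNNGC, the core bound by NRF2, was searched on both strands and stood in 0 of the 13, against 10.2% of all. No match overlapped another. *Hspa8* and *Rac1* were not in the table.

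For *Lamp2*, the assembly lists 4 transcripts and the array reads 2 of them by accession. The sources used here do not say which of these encodes the CMA receptor, so the probes are given by accession. The brighter probe (A_52_P483280, NM_010685) had log2 levels of 15.08 (untreated), 15.18 (AR7), 15.10 (CA39) and 15.26 (CA77). The CA77 array was the highest, and only its difference from untreated, 0.18 or 1.13-fold, passed the measurement tolerance. AR7 differed from untreated by 0.09 and CA39 by 0.02.

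The second *Lamp2* probe (A_55_P2102126, NM_001017959) had levels of 13.06 (untreated), 13.29 (AR7), 12.99 (CA39) and 13.28 (CA77). AR7 and CA77 lay together above untreated, and CA39 lay beside it. The differences were 0.23 (1.17-fold) for AR7, -0.07 for CA39 and 0.22 (1.16-fold) for CA77. Both larger values passed the tolerance, and neither passed 0.31. Around this spot the neighbouring probes also differed between arrays. With the local median taken off, the differences were 0.33 for AR7, which is past 0.31, 0.03 for CA39 and 0.27 for CA77.

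Between the compounds, the second *Lamp2* probe differed by -0.30 from AR7 to CA39 (95% interval -0.62 to 0.01) and by 0.29 from CA39 to CA77 (-0.02 to 0.60). From AR7 to CA77 it differed by -0.01 (-0.33 to 0.30). For the brighter probe the values were -0.08, 0.16 and 0.08 in that order. CA77 lay above CA39 by the tolerance or more on both probes, and each of these intervals holds 0. The probes differed from each other by at most 0.14 in any comparison with untreated, which is within the tolerance. Neither *Lamp2* transcript was past 1.5-fold with any compound. The AR7 value of the second probe was 0.336 with the 75th percentile scaling and 0.364 with the quantile-normalised processed signal, and with these its interval left out 0.

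Over 13018 genes detected on all arrays, those whose 3 differences from untreated were nearest to the brighter *Lamp2* probe, by Euclidean distance, were *Fbxo45*, *Tia1* and *Bud31*, at distances of 0.008, 0.012 and 0.012. In all, 1114 genes lay within the tolerance of it.

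*Hspa8* was read by 3 probes, all with the accession NM_031165, of 2 transcripts that the assembly lists. The brightest (A_55_P2080603) had levels of 17.87 (untreated), 17.94 (AR7), 17.83 (CA39) and 17.88 (CA77). The next (A_55_P2069721) had 17.83, 17.82, 17.68 and 17.87 in the same order of arrays. None of these values set a treated array apart from untreated, and the largest of the 6 differences was -0.15 with CA39 on the second probe. The dimmer probe (A_52_P12877) had 16.52, 16.57, 16.56 and 16.68, and its CA77 value was 0.15 higher than untreated. On these values no probe passed the tolerance of 0.16 with any compound. Other settings carried 3 values past it: the second probe reached -0.26 and the brightest -0.162 with CA39 under the series table, and the dimmer one reached 0.21 with CA77 when the local median was taken off. Between compounds, 1 value passed it: CA77 was 0.19 higher than CA39 on the second probe. The 3 probes differed from one another by up to 0.19.

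*Ctsa*, the protease that cleaves the receptor, was the one gene of the 10 with a probe higher with every compound by more than the tolerance. Its bright probe (A_55_P1955841, NM_001038492) had levels of 15.90 (untreated), 16.27 (AR7), 16.43 (CA39) and 16.21 (CA77). Untreated was the lowest array and CA39 the highest. Every difference of this probe from untreated is taken from the same untreated spot, so they are not separate observations. The differences were 0.36 (1.29-fold) for AR7, 0.53 (1.44-fold) for CA39 and 0.30 (1.23-fold) for CA77, of which those for AR7 and CA39 passed 0.31. For AR7 this was lost with the 75th percentile scaling (0.234) and the series table (0.273), and CA77 reached 0.324 with the quantile-normalised processed signal. Of the 27174 probes detected on all arrays, 3.63% were above the tolerance with every compound, against 1 of the 17 here.

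No pair of compounds differed at the bright *Ctsa* probe by more than the interval allows. It differed by 0.17 from AR7 to CA39 (95% interval -0.15 to 0.48), by -0.06 from AR7 to CA77 (-0.37 to 0.25) and by -0.23 from CA39 to CA77 (-0.54 to 0.08). With the local median of neighbouring spots taken off, the differences from untreated were 0.31, 0.56 and 0.28.

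The other *Ctsa* probe (A_52_P672803, NM_008906) was dim, with spot medians of 128 (untreated), 122.5 (AR7), 164 (CA39) and 126 (CA77) (scanner units). Its levels were 6.44, 6.28, 6.92 and 6.62, and the AR7 value was not well above background. CA39 was again the highest array, 0.48 above untreated, and CA77 was 0.18 above it. At this level both lie near the limit of detection. For AR7 no fold is given, since the bound of -0.16 became 0 when the floor was set at the 1st percentile of detected signal.

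The genes nearest to the bright *Ctsa* probe over the 3 differences were *Lypd2*, *Asprv1* and *Tspan17*, at distances of 0.022, 0.042 and 0.043. *Lypd2* differed from untreated by 0.37, 0.54 and 0.28 for AR7, CA39 and CA77. In all, 52 of the 13018 genes lay within the tolerance of *Ctsa*.

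*Gfap*, the intermediate filament gene whose product stabilises the receptor multimer and which is best known from astrocytes, was near background in these fibroblasts. Its detected probe (A_55_P2157250, NM_010277) had spot medians of 283 (untreated), 282.5 (AR7), 228 (CA39) and 194 (CA77). The normalised levels were 7.92, 7.80, 7.51 and 7.48. CA39 and CA77 lay together below untreated and AR7. Their differences from untreated were -0.40 (0.76-fold) and -0.43 (0.74-fold), and that of AR7 was -0.11. These values passed 0.31 for CA39 and CA77. Probes under a log2 level of 9 had a larger tolerance, 0.19, and both values exceeded that too.

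Between compounds, this *Gfap* probe differed by -0.32 from AR7 to CA77 (95% interval -0.63 to -0.01), by -0.29 from AR7 to CA39 (-0.60 to 0.02) and by -0.03 from CA39 to CA77. With the tolerance of its own level band, the first of these intervals holds 0 as well.

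A second *Gfap* probe (A_55_P2157245, NM_001131020) was detected on the AR7 array alone. Its spot medians were 77 (untreated), 275 (AR7), 98 (CA39) and 75 (CA77), over a local background of 21 to 22. AR7 was at least 2.60 higher on the log2 scale, or at least 6.07-fold, with the lowest detected signal of the untreated array as its floor, and at least 1.88 higher with the floor at the 1st percentile. The spot's surroundings were not raised: of the 20 spots within 2 rows and 2 columns, 0 were over 1 log2 unit above the other arrays on AR7, and the highest was at 0.38, against 2.47 for the spot itself. Over the whole AR7 array 2.18% of spots exceeded 1. The third probe (A_52_P52303), which has the same accession, was on no array well above background, with levels of 5.05, 4.83, 4.99 and 4.74. The 3 *Gfap* probes thus gave 1 value near untreated, 1 far above it and 1 without signal for the same RNA of AR7, and each of these values rests on 1 spot. Of 7 astrocyte markers, 5 were detected on all arrays and *S100b* and *Gjb6* on none. Their median difference from untreated was -0.27, -0.12 and -0.27 for AR7, CA39 and CA77, and single markers ran both ways: *Aldh1l1* was at -0.65, 3.14 and -0.55, *Slc1a2* at 1.03, 1.66 and 1.03, and *Slc1a3* at -0.27, -0.74 and -0.29. The *Slc1a2* values came from its brightest probe, and its other probes were detected on no array. The part of these markers in the *Gfap* values was not tested.

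*Eef1a1*, the translation elongation factor that takes part in dissolving the multimer, was read by a pair of bright probes. The first (A_55_P2008692, NM_010106) had levels of 17.99 (untreated), 18.09 (AR7), 18.06 (CA39) and 18.13 (CA77). The second (A_51_P118765, same accession) had 18.10, 18.12, 18.03 and 18.01. Untreated was the lowest array by the first probe and CA77 the lowest by the second, and all 6 differences lay between -0.09 and 0.14. With CA77 the probes disagreed by 0.23, more than any compound moved either of them. *Eef1a1* and *Hspa8* have many near-identical pseudogene copies, and whether their probes also read such copies was not tested.

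**Figure D2:**
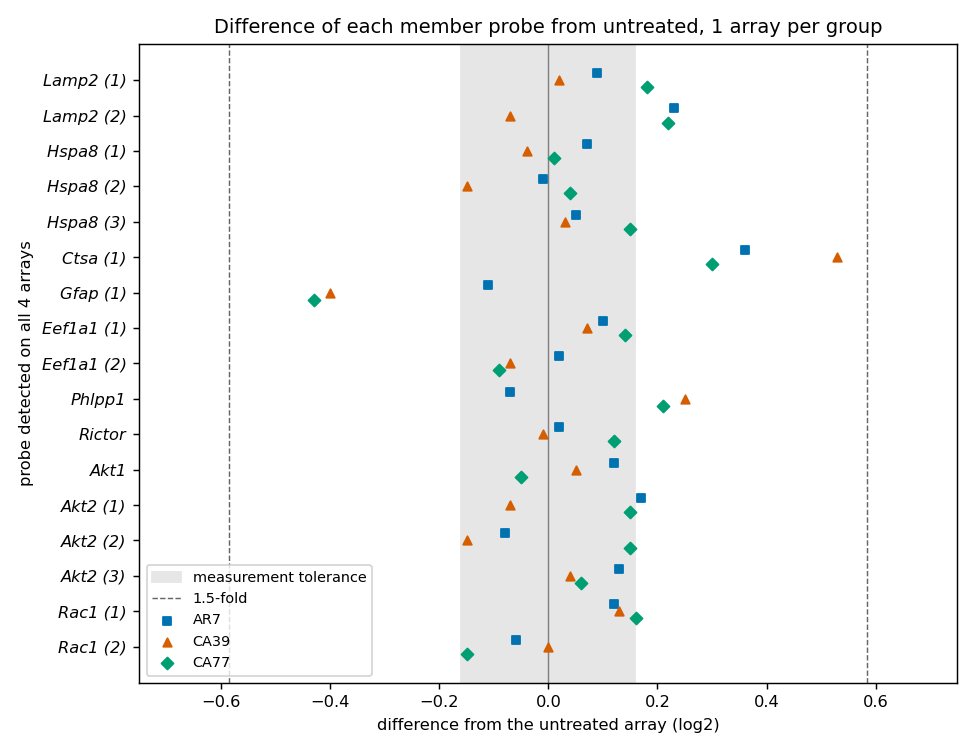
Difference of each treated array from the untreated array (log2, 1 array per group) for the 17 probes detected on all 4 arrays. The grey band is the measurement tolerance of 0.16 to either side and the dashed lines are 1.5-fold. *Ctsa* lies to the right of the band with all compounds, *Gfap* lies to its left with CA39 and CA77, and no point reaches the dashed lines.

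*Phlpp1*, the phosphatase that acts against AKT, was read by 1 probe (A_51_P156158, NM_133821). It had levels of 8.97 (untreated), 8.90 (AR7), 9.22 (CA39) and 9.18 (CA77). CA39 and CA77 lay above untreated by 0.25 and 0.21, past the tolerance and within 0.31, while AR7 differed from it by -0.07. CA39 was 0.32 higher than AR7 (95% interval 0.01 to 0.63), and CA77 was 0.28 higher than AR7 (-0.03 to 0.59). The arrays split into AR7 beside untreated and CA39 beside CA77, as they did, in the other direction, on the 1 *Gfap* probe detected on all arrays.

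*Rictor*, the subunit that defines mTORC2, had levels of 10.81 (untreated), 10.83 (AR7), 10.80 (CA39) and 10.93 (CA77) (A_52_P145412, NM_030168). The 4 arrays could not be ordered beyond the tolerance, and the largest difference from untreated was 0.12 with CA77.

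*Akt1* was read by 1 probe printed on 2 spots (A_55_P2066384, NM_009652), with mean levels of 15.39 (untreated), 15.51 (AR7), 15.44 (CA39) and 15.34 (CA77). No treated array differed from untreated by more than 0.12 in size, and CA77 differed from AR7 by -0.17. The spots themselves stood further apart than the arrays did: on untreated one gave 15.18 and the other 15.61.

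*Akt2* was read by 3 probes of NM_001110208. The brightest (A_55_P2025228) had levels of 14.99 (untreated), 15.17 (AR7), 14.93 (CA39) and 15.14 (CA77). The next (A_55_P2066518) had 14.86, 14.78, 14.71 and 15.01. AR7 differed from untreated by 0.17 on the first and by -0.08 on the second, so only the first placed it past the tolerance. It was 0.072 to 0.14, within the tolerance, with the 75th percentile scaling, the quantile-normalised processed signal, the series table and the local median taken off. The dimmest (A_55_P2066523) had 11.39, 11.52, 11.43 and 11.45. Each probe of the bright pair put CA77 above CA39, by 0.21 and 0.30, whereas the dimmest did not separate them. The probes of this gene disagreed by up to 0.25 in a comparison with untreated.

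*Rac1* was read by 2 probes of NM_009007. One (A_55_P2076489) had levels of 16.09 (untreated), 16.21 (AR7), 16.22 (CA39) and 16.25 (CA77), which placed untreated lowest. The other (A_51_P513254) had 15.05, 14.99, 15.05 and 14.90, which placed CA77 lowest. With CA77 the first probe differed from untreated by 0.16 and the second by -0.15. That gap of 0.31 was the largest between probes of one gene among those detected on all arrays, and the direction for *Rac1* is therefore not settled by these probes.

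Counted over the probes, 1 of 19 compared was past 1.5-fold with AR7, the *Gfap* probe with a bound, against 7.11% of all probes. With CA39 it was 0 of 18 against 11.5%, and with CA77 0 of 18 against 8.24%. None of the 10 genes was past 1.5-fold by its brightest probe, and the shares were at or below those of all probes.

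At the measurement tolerance of 0.16, 4 of 19 compared probes were higher and 1 lower with AR7. Of all probes compared, 14.4% were higher and 28.2% lower. With CA39 it was 3 and 1 of 18, against 20.1% and 32.6% of all probes. With CA77 it was 6 and 1 of 18, against 19.9% and 31.4%. Counts and shares both include bounds. With AR7 the bounded *Gfap* probe is among the higher ones, and the bounded *Ctsa* probe is the lower one. With CA39 the direction depended on the scaling: 3 were higher and 5 lower with the 75th percentile scaling, and 3 and 6 with the series table. The interval of a difference from untreated left out 0 for 1 of 17 measured probes with AR7 (15.3% of all measured probes), for 3 of 18 with CA39 (32.9%) and for 1 of 18 with CA77 (20.5%), which were probes of *Ctsa* and *Gfap*. The median difference over the measured probes was 0.07, 0.01 and 0.14, while over all measured probes it was -0.01, -0.03 and -0.02. In size, the median difference was 0.09, 0.07 and 0.15 in the same order, and that of all measured probes was 0.12, 0.20 and 0.15. For CA39 the members' median size was 0.10 with the 75th percentile scaling and 0.14 with the series table.

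Of the 17 probes detected on all arrays, 10 stayed within the tolerance with every compound, compared with 21.9% of all probes detected on all arrays. The members were mostly bright, and bright probes differed less. At mean log2 levels of 13 or more, 8 of 13 members stayed within it, compared with 40.1% of 6640 probes. The genes with every detected probe inside it were *Hspa8*, *Eef1a1*, *Rictor* and *Akt1*. Under every other setting tried this held for *Akt1* alone, since *Hspa8* left the tolerance as given above, *Eef1a1* (A_51_P118765) reached -0.181 with CA39 and *Rictor* reached 0.17 with CA77.

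**Figure D3:**
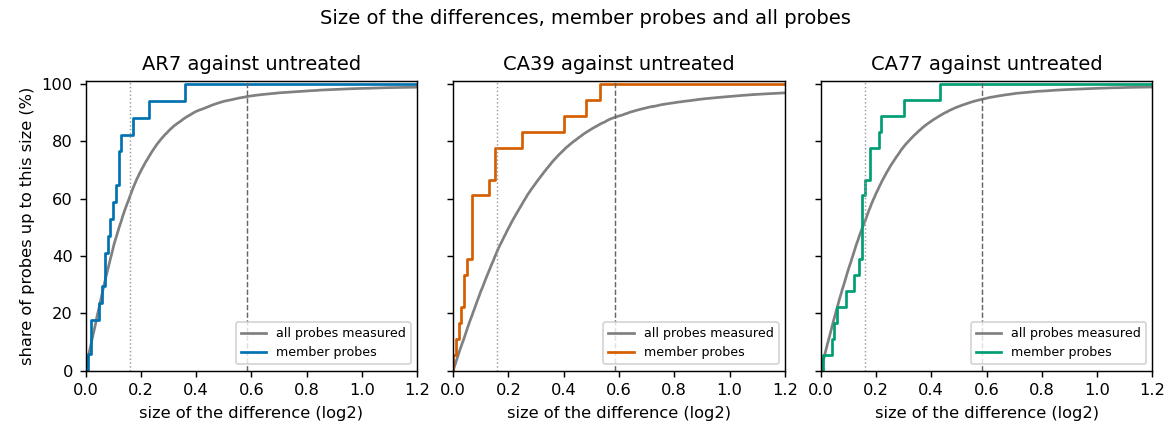
Share of probes (%) whose difference from untreated was no larger than the size on the x axis (log2), for the measured probes of the 10 genes (coloured steps) and for all measured probes (grey), in 1 panel per compound. The dotted line is the measurement tolerance and the dashed line is 1.5-fold. The coloured line lies above the grey one over most of the range for CA39, where the median size was 0.07 against 0.20, and the lines meet near 0.15 for CA77.

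The compounds were compared with each other in 3 pairs at the same dose and time. The 95% interval of the difference left out 0 for 2 of 52 measured probe differences, *Phlpp1* between CA39 and AR7 and *Gfap* between CA77 and AR7. Over all measured probes that share was 31.4% for CA39 against AR7, 12.3% for CA77 against AR7 and 30.4% for CA77 against CA39. Past 1.5-fold, the dim *Ctsa* probe was higher and the dim *Gfap* probe lower with CA39 than with AR7 (17.4% of all probes in either direction), the dim *Gfap* probe was lower with CA77 than with AR7 (7.75%), and 0 of 18 probes differed between CA77 and CA39 (14.7%). The *Ctsa* bound, 0.64, was 0.10 with the floor at the 1st percentile, so that call was lost, while the *Gfap* bounds stayed past 1.5-fold at -0.88 and -1.49. The calls past 1.5-fold all rest on a probe that was not detected with one of the compounds. The intervals reach 0.31 to either side of each value, so these values do not show that the compounds act alike.

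The members were then set in the direction in which each is known to act on CMA, in a mean modelled on the study's index of the whole CMA network. That index gives its double weight to LAMP2A. Here 10 genes were used, and weight 2 went to the brightest *Lamp2* probe, whose splice form is not known. *Lamp2*, *Hspa8*, *Gfap*, *Phlpp1* and *Rac1* were counted as raising CMA and *Ctsa*, *Eef1a1*, *Rictor*, *Akt1* and *Akt2* as lowering it, each by its brightest probe. In the order AR7, CA39, CA77 the weighted mean (log2) was -0.052, -0.055 and -0.032, beside a tolerance of 0.052 for such a mean. The AR7 value turned to 0.109 when the detected probes of each gene were averaged, since the *Gfap* probe detected with AR7 alone then entered. Genes that raise CMA averaged 0.020, -0.009 and 0.024, and genes that lower it 0.154, 0.115 and 0.131. Above untreated were 3, 3 and 4 of the 5 raising genes and 5, 3 and 4 of the 5 lowering genes. *Ctsa* was the highest of the lowering genes with each compound, and the median of the lowering genes was 0.116, 0.048 and 0.142. The means thus lay near the edge of that tolerance with AR7 and CA39 and inside it with CA77.

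**Figure D4:**
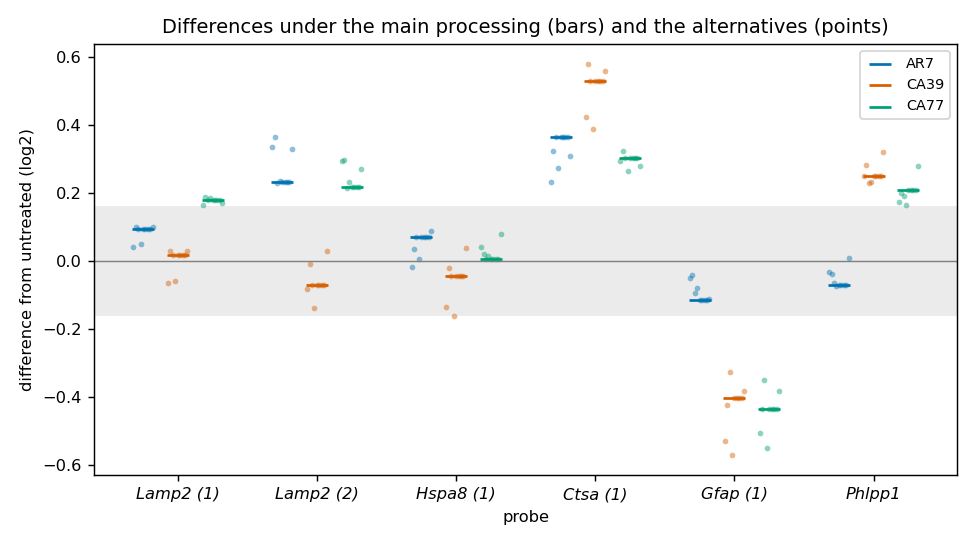
Difference from untreated (log2) of 6 probes under the main processing (bars) and under each alternative (points), with the measurement tolerance in grey. *Ctsa* stays above the band with every compound and *Gfap* stays below it with CA39 and CA77. The brightest *Hspa8* probe lies in or at the edge of the band, and the second *Lamp2* probe lies above it with AR7 and CA77.

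Over all alternatives the bright *Ctsa* probe ranged from 0.23 to 0.36 with AR7, from 0.39 to 0.58 with CA39 and from 0.27 to 0.32 with CA77. *Gfap* (A_55_P2157250) ranged from -0.57 to -0.33 with CA39 and from -0.55 to -0.35 with CA77, and *Phlpp1* from 0.23 to 0.32 with CA39 and from 0.17 to 0.28 with CA77. The second *Lamp2* probe ranged from 0.23 to 0.36 with AR7 and from 0.22 to 0.30 with CA77, and from -0.14 to 0.03 with CA39.

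Other genes of the same pathway were read for comparison, each by its brightest probe. Of 8 other CMA network genes, 0 were past 1.5-fold with AR7, 1 with CA39 and 0 with CA77, against 5.73%, 12.7% and 6.53% of all genes, so none of these shares stood above that of all genes. The gene was *Nfatc1*. *Nfatc1*, a transcription factor that raises *Lamp2* expression, had levels of 10.04 (untreated), 10.16 (AR7), 9.29 (CA39) and 10.27 (CA77). The CA39 value was at -0.75 from untreated, and the other *Nfatc1* probe gave -0.56. *Nfe2l2*, which encodes NRF2, had levels of 14.59, 14.79, 14.37 and 15.06, highest with CA77 at 0.46 above untreated. *Rara*, the receptor that the compounds were made to bind, had 13.48, 13.27, 13.91 and 13.38, highest with CA39 at 0.43 above untreated. *Ncor1*, its corepressor, differed from untreated by 0.10, 0.13 and 0.17. With CA39 the remaining *Ncor1* probes were at 0.25 and 0.46. *Rab11a*, a GTPase of vesicle transport, and the chaperone genes *Hsp90aa1*, *Hsp90ab1* and *Dnajb1* differed by -0.09 to 0.25, and their largest value was *Dnajb1* with CA77. The list's medians were 0.03, -0.04 and 0.15 with AR7, CA39 and CA77, against medians of all genes between -0.017 and -0.007.

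Of 10 co-chaperones of HSC70, 0 were past 1.5-fold with any compound by the brightest probe, against 5.73%, 12.7% and 6.53% of all genes for AR7, CA39 and CA77. Their medians were 0.09, 0.02 and 0.07. Of the 4 co-chaperones with further probes, 2 had dimmer probes past 1.5-fold with CA39: *Hspa4* at -0.60 and -1.02, against 0.04 on the brightest, and *Hsph1* at -0.72, against -0.55. The further probes of *Bag1* and *Dnaja1* were at 0.22 and -0.14. These genes were named after their values were seen. Of 7 regulators of mTORC2 and AKT detected on all arrays, 0 were past it.

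**Figure D5:**
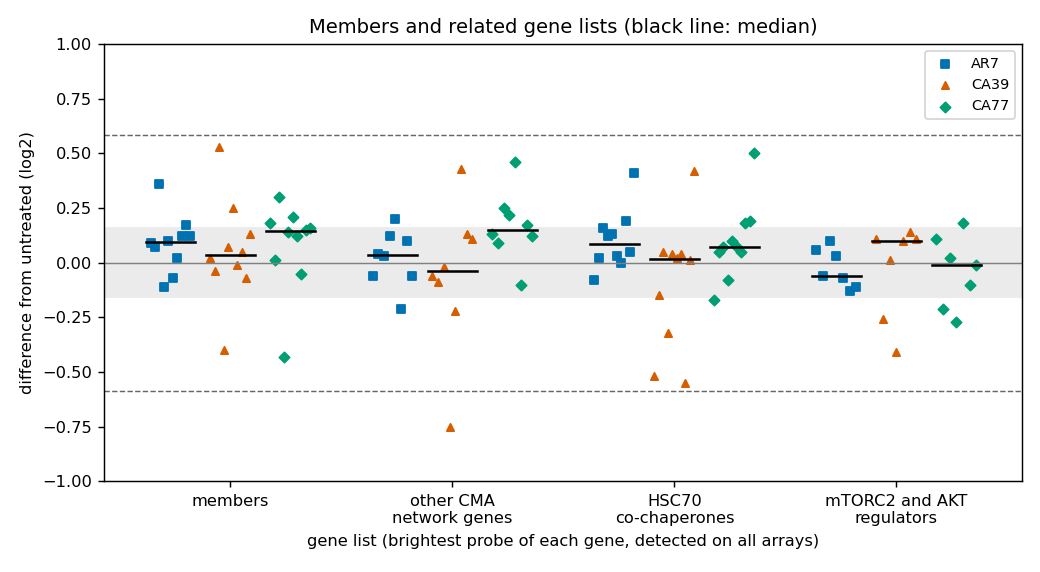
Difference from untreated (log2) of single genes, by their brightest probe and only where detected on all arrays, for the 10 genes and 3 related lists, with the median of each list as a black line, the tolerance in grey and 1.5-fold dashed. *Nfatc1* with CA39 lies below the lower dashed line at -0.75, and the points of the 10 genes lie between the dashed lines.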

How the data were processed

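RNA of 4 NIH-3T3 cultures, 1 per group, was labelled with Cy3 by the authors and hybridised to one-colour Agilent arrays. Per the file headers, the deposited intensities came from Feature Extraction 10.7.3.1, which gives each of the 62976 spots of an array a linear signal, the background around it and flags of quality. The submitters' processing notes name oligo and RMA without versions. At every spot the series table equalled the background-subtracted intensity, unscaled and not in log units, and it served as an alternative only. Columns of other series numbered 0.

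The median signal of each spot was corrected for its background median with the normexp model of limma 3.58.1 (R 4.3.3, no offset). Arrays were then quantile normalised without the control spots, and log2 values were taken. Outlier spots, non-uniform or deviating from their population, were dropped before averaging per probe. Detection required that more than 50% of a probe's spots pass the scanner software's test against background. A dim value was raised to the lowest detected signal of its array, and a difference against it is a bound. Comparisons took probes detected on at least 1 of the 2 arrays.

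Accessions were matched without versions to RefSeq and Ensembl identifiers of GRCm38.p6, which named 27512 probes of 55378. The array design cites another build, so no probe coordinates are given. Promoters of 8 of the 10 genes were found in the RefSeq table.

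With 1 array per group no test was run. The tolerance covers spots within an array and not the spread between cultures, and the number of arrays limits the precision. All 20 probes of the genes are named, with genes of related lists past 1.5-fold (1 of these is not reported here), all 8 other CMA network genes, and the 3 nearest genes to *Lamp2* and to the member with the largest range. *Hsph1* and *Vim* are named because compounds lay on opposite sides of untreated. Where a gene stands for several probes, the brightest was used. The genes, lists and rules were chosen with earlier results of these data known. The 14 alternatives changed scaling, background, filter, floor, summary or weights, and 3 of them were added after the values were seen. The procedure was tested on simulated data. There every array was the untreated one with added spot noise, and known changes were set on 1 of them. All kept the detection flags of the untreated array, so bounds, slide effects and scan effects were not tried.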

Additional observations from a re-analysis of the deposited data

Results flagged for a closer look

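In 5 cases a pair of compounds lay on opposite sides of the untreated array, each by more than the measurement tolerance. All are genes read for comparison, and none is among the 10 genes of the receptor complex. *Nfatc1* was lower with CA39 and higher with CA77, and these compounds differed by 0.97 (log2). *Nfe2l2* split the same way, by 0.69. *Rara* was lower with AR7 and higher with CA39, by 0.64. *Hsph1*, a co-chaperone of HSC70, was higher with AR7 and lower with CA39, by 0.74. *Vim*, the vimentin gene and a relative of *Gfap*, was lower with AR7 and higher with CA39, by 0.41. With 1 array per compound these differences were not tested. The share of all genes that split in this way was not computed, so these cases have no background beside them. Past the tolerance in either direction were 38.7%, 54.5% and 45.9% of all genes with AR7, CA39 and CA77.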

How the results depend on the processing

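Of 459 member probe differences recomputed under other settings, 456 stayed within the tolerance of the reported value, and of 29 that changed sign 0 had been past the tolerance. The exceptions were *Rac1* (A_55_P2076489) with CA39, 0.13 as reported and -0.077 with the 75th percentile scaling and -0.044 with the series table, and *Gfap* (A_55_P2157250) with CA39, -0.57 with the series table. Keeping marked spots, the median over spots, requiring detection on all arrays and dropping the filter could not change these probe values. No spot of these probes was marked, each had 1 or 2 spots, and all were detected on every array. Those settings are nevertheless counted in the 459. Of 126 counts and means, 106 kept their value within the limits set for them. Member probes past the tolerance with AR7, bounds included, numbered 5. They were 3 with the 75th percentile scaling, the quantile-normalised processed signal, the series table, only probes detected on all arrays, and the local median taken off. With CA39 they numbered 4, and 8 with the 75th percentile scaling and 9 with the series table. Past 1.5-fold, the AR7 count of 1 became 0 with only probes detected on all arrays, and the CA39 count of 0 became 1 with the quantile-normalised processed signal and with no filter. Genes of the related lists past 1.5-fold with AR7 numbered 2, and were 1 with the quantile-normalised processed signal, the offset of 50, the series table and the floor at the 1st percentile, and 0 with only probes detected on all arrays. With CA39 they numbered 3, and 5 with the 75th percentile scaling and the series table. With CA77 they numbered 1, and 0 with only probes detected on all arrays and 2 with no filter. The directed mean for AR7, -0.052, became 0.109 with the mean of the detected probes of each gene, since the *Gfap* probe detected on AR7 alone then entered. The floor at the 1st percentile, the local median and a tolerance by level band were chosen after seeing the data. No paired analysis was possible because each group had 1 array, no array could be left out, and 1 slide held all arrays, so slide could not be a block. Dim probes (both of *Gfap*'s that changed and one of *Ctsa*) carry the largest uncertainty.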

Other observations

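Among relatives of the 10 genes, those past 1.5-fold were *Rac2* and *Cpvl*. *Rac2*, the blood cell relative of *Rac1*, had log2 levels of 8.53 (untreated), 8.69 (AR7), 7.66 (CA39) and 8.55 (CA77), so that CA39 alone lay apart, at -0.88 from untreated. *Cpvl*, a carboxypeptidase of the family of *Ctsa*, was not detected in untreated cells or with CA39, and was at least 2.30 higher with AR7 and at least 3.06 higher with CA77, with the lowest detected signal of the untreated array as the floor. With the floor at the 1st percentile these bounds were 1.58 and 2.34. *Lamp1*, the other major lysosomal membrane glycoprotein gene, differed from untreated by 0.02, 0.20 and 0.13 for AR7, CA39 and CA77, and *Hspa5*, the endoplasmic reticulum relative of *Hspa8*, by -0.45, -0.31 and -0.28. *Eef1a2* was not detected on any array.

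The fibroblast markers moved with the compounds. Their median difference from untreated was 0.58 with CA39 and -0.21 with each of the other compounds. With CA39, 4 of 9 were past 1.5-fold higher, against 7.87% of all genes, among them *Col1a1* at 1.06 and *Fn1* at 1.47, while *S100a4* was at -0.22. With AR7 and with CA77 2 were past it lower, against 2.79% and 2.85% of all genes. Their part in the values of the 10 genes was not tested.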
